A study of Homo sapiens with 24 samples.

Results

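Long noncoding RNAs are transcripts that are processed much like messenger RNAs but are not translated into a protein. The report follows 9 of them in LNCaP prostate cancer cells after siRNAs against a pair of other noncoding transcripts, TAPIR-1 and TAPIR-2. PCA3, PCGEM1, PCAT1 and PART1 are known as prostate or prostate cancer transcripts. MALAT1, NEAT1, DANCR and GAS5 are made in many tissues and are often abundant, and H19 is an imprinted gene. The members are named one by one, out of 22692 genes with a probe. Probes were assigned to a member when the RefSeq accession printed on the array belonged to that gene. By this rule 22 of 50599 probes at 24 h and 20 of 58201 probes at 48 h belonged to the members, 8 of the 9 genes had a probe at 24 h, and PCAT1 had one only on the 48 h array version.

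LNCaP is an established, androgen-responsive line from a human prostate carcinoma metastasis. Every culture was electroporated with one siRNA: si-A1 against TAPIR-1, si-A2 against TAPIR-2, or the scrambled control si-SCRL. RNA was taken 24 h or 48 h later from 4 biological replicates per siRNA and time point and hybridised to one-colour Agilent arrays, version 2 at 24 h and version 3 at 48 h. The si-A2 array with the replicate number 2 at 48 h was left out because it was dim, at a median spot intensity of 13.9, against 20.4 to 32.2 on the other 11 arrays of 48 h. All groups are a single cell line, so a pooled RNA level cannot tell apart fewer cells making a transcript and less of it per cell. The comparison asked of each member was whether its level differed between a TAPIR siRNA and the scrambled control, between the TAPIR siRNAs, and between the time points in the size of that difference.

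Levels are log2 normalized intensities, and a difference of 1 on this scale is a doubling. A probe's brightness depends on its sequence as well as on its target, so levels are compared only for the same probe and within a time point. Probes were called changed at an adjusted p below 0.01 (limma, Benjamini-Hochberg over all tested probes) and a log2 fold change of at least 0.5, with the array slide as a term. Values after ± are SDs over arrays for a level and standard errors of the fit for a fold change.

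The arrays had 58.5% to 71.7% of probes rated well above background at 24 h and 60.3% to 66.5% at 48 h. The luminal prostate markers KRT8 and KLK3 were rated well above background on every array, and KRT5 (basal), COL1A2 and LUM (fibroblast) and CHGA (neuroendocrine) on none. The same rating was given on every array to ENO2 of the neuroendocrine list, VWF and CDH5 of the endothelial list, and PTPRC and CD3E of the leukocyte list, and at 48 h to DCN of the fibroblast list, so the rating alone did not separate cell types. The TAPIR-2 probe read 5.04 ± 0.20 after si-SCRL, 4.64 ± 0.32 after si-A1 and 4.06 ± 0.74 after si-A2 at 24 h (n = 4 each), a log2 difference of -0.98 for si-A2 that was not called (adjusted p = 0.23, limma). At 48 h the same probe read 4.64 ± 0.58 after si-SCRL and 4.68 ± 0.90 after si-A2, a further TAPIR-2 probe was well above background on no array, and none was assigned to TAPIR-1, so these arrays do not show the depletion of the targets. The study itself reported knockdown of both transcripts in LNCaP by quantitative PCR at a later time, and described their expression in the line as low.

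Several of the members have well known roles. GAS5 and DANCR belong to the snoRNA host genes, whose introns give small nucleolar RNAs that guide the modification of ribosomal RNA; the spliced exons of GAS5 are turned over quickly in cells that translate actively and are known to build up when growth is halted. NEAT1 is the scaffold of the nuclear bodies called paraspeckles, and MALAT1 lies in nuclear speckles, where splicing factors are stored. H19 is an imprinted gene that also gives a microRNA, PCA3 lies inside an intron of PRUNE2 on the opposite strand and is measured in urine as a marker of prostate cancer, and PCAT1 is a transcript of the gene-poor region upstream of MYC.

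GAS5 rose after si-A1 at 48 h by both of its probes. On the GRCh38.p14 assembly it occupies chr1:173863901-173869045 on the minus strand. At 48 h, probe A_32_P230828 read 10.43, 10.65, 10.59 and 10.41 on the si-SCRL arrays, 11.55, 11.51, 11.42 and 11.60 on the si-A1 arrays, and 11.21, 10.95 and 11.06 on the si-A2 arrays. The 3 groups did not overlap: all si-A1 arrays were highest and all si-A2 arrays lay in between. GAS5 was 2.00-fold higher after si-A1 by this probe (log2 fold change 1.00 ± 0.09, adjusted p = 0.000248, limma). The other probe, A_33_P3326285, read 10.76, 11.52, 11.33 and 11.33 after si-SCRL, 12.36, 12.51, 12.10 and 12.24 after si-A1, and 12.08, 11.69 and 12.10 after si-A2. It gave 2.10-fold (1.07 ± 0.18, adjusted p = 0.00542), with every TAPIR siRNA array above every control array. After si-A2 the log2 differences were 0.57 ± 0.10 (adjusted p = 0.0252) and 0.74 ± 0.20 (adjusted p = 0.095), which did not pass the test.

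**Figure D1:**
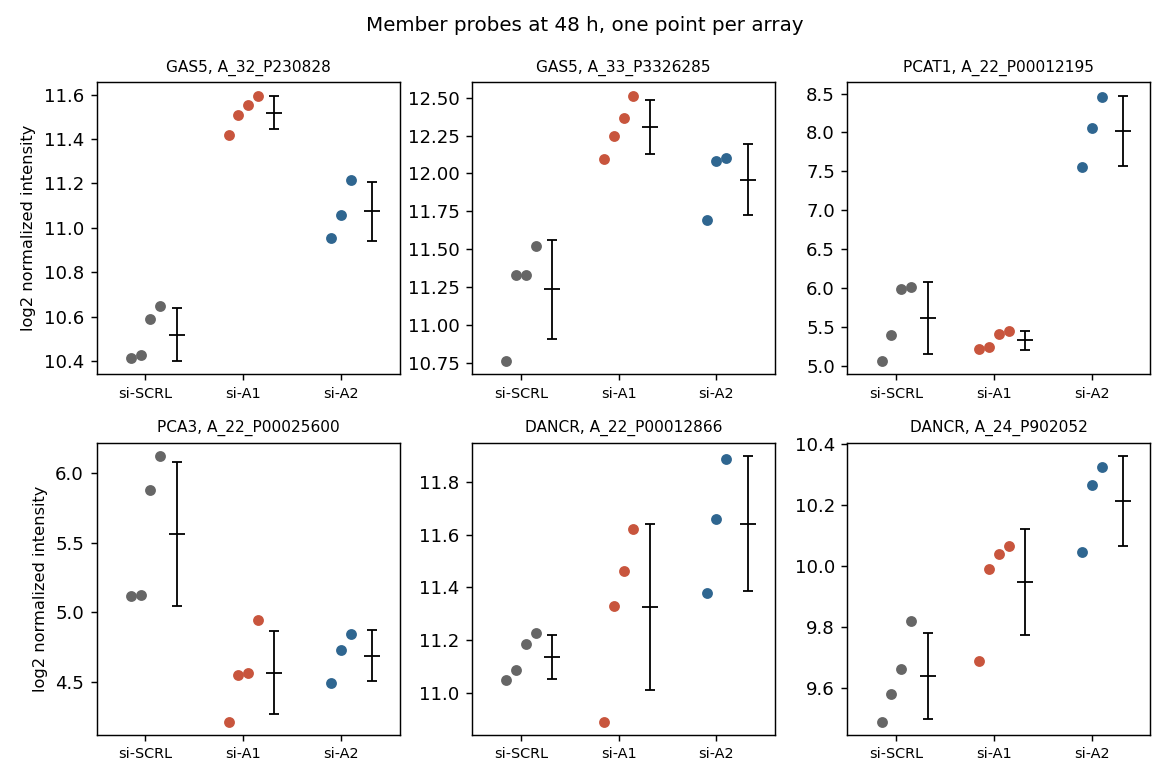
Log2 normalized intensity at 48 h of the probes of GAS5, PCAT1, PCA3 and DANCR (vertical axes, each with its own range), one point per array, for si-SCRL (n = 4), si-A1 (n = 4) and si-A2 (n = 3); the black bar is the mean ± SD. Both GAS5 probes lie higher after each TAPIR siRNA, PCAT1 is high after si-A2 alone (7.55 to 8.45), and PCA3 is lower after both.

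The 2 GAS5 probes were the only members called among 19 tested for si-A1 at 48 h, where 6.11% of all tested probes were called, and 2.13% were called higher. Within slides the first probe differed by 1.03 on slide 1 and 0.98 on slide 2, with fewer arrays each and no call (adjusted p = 0.0579 and 0.0718). Leaving out any 1 array kept the call of A_32_P230828. That of A_33_P3326285 was lost without any of the 4 si-A1 arrays or without si-SCRL replicate 3 or 4 (adjusted p = 0.0122 to 0.021), at log2 fold changes of 1.00 to 1.13. ZBTB37, a gene that overlaps the GAS5 locus, was at -0.01 ± 0.10 after si-A1 (adjusted p = 0.974). Of 22 tested genes within 1 Mb of GAS5, 1 was called for si-A1 at 48 h, where 6.11% of all probes were. It was CENPL, a centromere protein with a dim probe (mean level 4.77), at -2.12 ± 0.13 (adjusted p = 5.12e-05).

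At 24 h GAS5 did not follow this pattern. Probe A_33_P3326285 read 12.02, 11.24, 13.41 and 11.93 after si-SCRL, 12.37, 11.37, 12.33 and 11.99 after si-A1, and 11.78, 11.55, 12.05 and 11.73 after si-A2. The groups overlapped, and si-SCRL replicate 3 was the highest of the 12 arrays. The log2 differences were -0.14 ± 0.35 for si-A1 and -0.37 ± 0.35 for si-A2 (adjusted p = 0.894 and 0.74). Without si-SCRL replicate 3 they became 0.24 and 0.01. The change of the effect from 24 h to 48 h, on the arrays of both time points normalized together, was 1.14 ± 0.46 for si-A1 and 1.1 ± 0.48 for si-A2, and was not called (adjusted p = 0.279 and 0.61). The share of all probes called for that change was 0.159% for si-A1 and 0.0335% for si-A2.

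DANCR, the other snoRNA host among the members, lies at chr4:52712394-52720697. Its probe A_22_P00012866 read 11.23, 11.19, 11.08 and 11.05 after si-SCRL, 10.89, 11.33, 11.46 and 11.62 after si-A1, and 11.38, 11.66 and 11.89 after si-A2 at 48 h. All si-A2 arrays lay above the control arrays, and the si-A1 arrays spanned both. The log2 differences of its probes were 0.47 ± 0.17 and 0.56 ± 0.13 for si-A2 (adjusted p = 0.187 and 0.0589) and 0.19 ± 0.15 and 0.31 ± 0.12 for si-A1 (adjusted p = 0.477 and 0.119). Neither was called, and at 24 h, too, no call was made, with differences of 0.08 ± 0.17 for si-A1 (adjusted p = 0.858) and 0.26 ± 0.17 for si-A2 (adjusted p = 0.624).

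The other snoRNA host genes were read from a list of 20, of which 18 had a tested probe. After si-A1 at 48 h 4 of the 18, each read by its brightest tested probe, rose and none fell. Over all tested probes, dim ones included, 2.13% were called higher. The median log2 fold change over the list was 0.38, against 0.05 over all tested probes. SNHG8 rose by 0.98 ± 0.12 (adjusted p = 0.00123), EPB41L4A-AS1 by 0.89 ± 0.12 (adjusted p = 0.00178), SNHG3 by 0.62 ± 0.07 (adjusted p = 0.000972) and ZFAS1 by 0.61 ± 0.10 (adjusted p = 0.00418). An alternative fit took the replicate number as a block in place of the slide, since same-numbered arrays of 48 h, which share a slide, deviated together. In it ZFAS1 was not called (adjusted p = 0.0134) and the other 3 were. SNHG1 was on the other side at -0.32 ± 0.09 (adjusted p = 0.0385), not called. After si-A2 at 48 h none of the 18 was called and their median was 0.08. The largest value there was that of EPB41L4A-AS1, at 0.70 ± 0.13 (adjusted p = 0.0284). Between the TAPIR siRNAs SNHG3 was lower under si-A2, by -0.62 ± 0.08 (adjusted p = 0.00434), the one host gene called in that comparison at 48 h, and not with the replicate block (adjusted p = 0.0189). At 24 h the only one called was SNHG16, which fell after si-A2 (-1.01 ± 0.15, adjusted p = 0.00401) and was also lower than after si-A1 (-1.54 ± 0.15, adjusted p = 0.000975). The first of these calls was kept in 5 of 12 fits that left out 1 array, at -1.05 to -0.90, and the second in all 12.

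**Figure D2:**
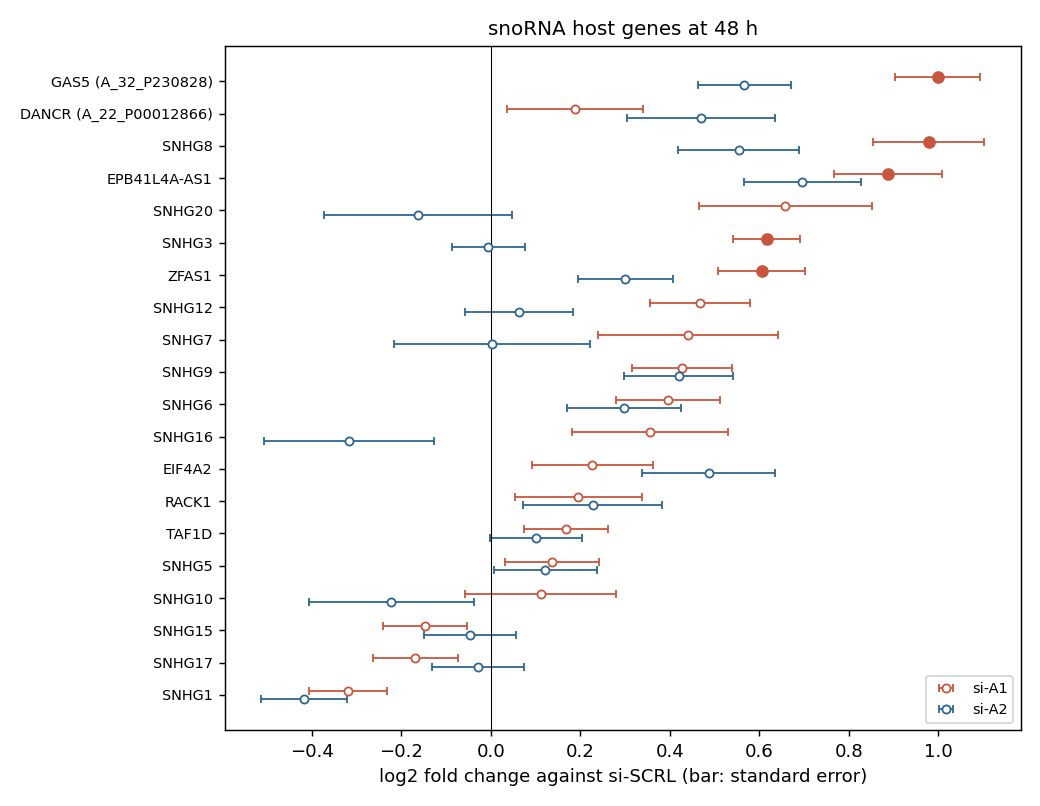
Log2 fold change against si-SCRL at 48 h (horizontal axis, bars are standard errors) of GAS5, DANCR and the 18 tested snoRNA host genes (rows, ordered by the si-A1 value), for si-A1 and si-A2; filled points passed the test. GAS5, SNHG8, EPB41L4A-AS1, SNHG3 and ZFAS1 are filled for si-A1, and no point is filled for si-A2.

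Many snoRNA host transcripts are known to begin with a tract of pyrimidines, which ties their translation and decay to growth signals. The RefSeq start windows (GRCh38.p14, from 20 bases before to 50 bases from the annotated start, on the strand of the gene) are shown for GAS5, for DANCR and for the 4 host genes that rose with GAS5, with the longest unbroken run of C and T in capitals. They lie at chr1:173868996-173869065 (GAS5, minus strand), chr4:52712374-52712443 (DANCR), chr4:118278742-118278811 (SNHG8), chr1:28505923-28505992 (SNHG3), chr20:49278622-49278691 (ZFAS1) and chr5:112160506-112160575 (EPB41L4A-AS1), the last 5 on the plus strand.
GAS5: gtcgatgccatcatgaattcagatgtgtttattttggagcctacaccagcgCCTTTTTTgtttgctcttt
DANCR: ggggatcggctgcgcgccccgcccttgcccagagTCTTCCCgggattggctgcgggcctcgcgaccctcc
SNHG8: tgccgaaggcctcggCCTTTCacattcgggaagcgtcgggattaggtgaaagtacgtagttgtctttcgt
SNHG3: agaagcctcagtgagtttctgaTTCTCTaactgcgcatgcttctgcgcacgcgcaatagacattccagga
ZFAS1: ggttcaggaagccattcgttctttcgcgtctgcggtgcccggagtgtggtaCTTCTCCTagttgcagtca
EPB41L4A-AS1: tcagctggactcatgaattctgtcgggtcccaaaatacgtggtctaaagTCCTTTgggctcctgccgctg
The run is 8 bases long in GAS5 and ZFAS1, 7 in DANCR and 6 in the other 3. It begins 31 bases after the annotated start in GAS5 and ZFAS1, 29 in EPB41L4A-AS1, 14 in DANCR and 2 in SNHG3. In SNHG8 the marked run begins 5 bases before the start, and a run of the same length near the end of the window is not marked. The capitals thus mark the first of the longest runs in the window and not a tract at the start. Such runs are common: 26% of the 34796 windows of the table hold a run of 8 or more on the same strand, 37.7% one of 7 or more and 54.1% one of 6 or more. Over 18 host genes with a window, GAS5 and DANCR included, the median longest run was 7 bases, and over all windows it was 6. The sequences are a description of where these transcripts start and say nothing on why their levels differed.

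PCAT1 gave the largest fold change of any member. It lies at chr8:127013154-127021014 and was measured by 1 probe, at 48 h only. That probe read 5.99, 6.01, 5.40 and 5.06 on the si-SCRL arrays, 5.21, 5.42, 5.24 and 5.45 on the si-A1 arrays, and 8.45, 7.55 and 8.06 on the si-A2 arrays. The si-A2 arrays stood far above the rest, and the si-A1 arrays lay within the control range. PCAT1 rose 5.58-fold after si-A2 (log2 fold change 2.48 ± 0.21, adjusted p = 0.0033, limma), and its level was 6.80-fold higher than after si-A1 (2.77 ± 0.21, adjusted p = 0.000742). It was the only member called for si-A2 at 48 h and the only one called between the TAPIR siRNAs. The share of all probes called was 0.445% for si-A2, with 0.0686% called higher, and 1.45% between the siRNAs, with 0.982% called higher after si-A2. For si-A1 the log2 difference was -0.29 ± 0.19 (adjusted p = 0.384).

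PCAT1 was higher after si-A2 in all 27 alternative fits, at log2 fold changes of 1.60 to 2.64, while the call against si-SCRL was lost in 11 of them. On slide 1 it was 2.44 and on slide 2 it was 2.58. With the replicate number as a block the value was 2.49 with an adjusted p of 0.0157, above the threshold of 0.01. The call was also lost without si-A2 replicate 1, 3 or 4 or si-SCRL replicate 2, 3 or 4 (log2 fold changes 2.34 to 2.64, adjusted p = 0.0117 to 0.0168), and with the dim array kept (2.10, adjusted p = 0.276). Against si-A1 the call was kept in every fit that left out 1 array.

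Of 8 genes with a tested probe within 1 Mb of PCAT1, 0 passed the test for either siRNA at 48 h. The share of all probes called was 0.445% for si-A2 and 6.11% for si-A1. At these shares 8 genes are too few to show whether PCAT1 rose alone. MYC, the growth-promoting transcription factor 714420 bases away, was at -0.44 ± 0.12 after si-A2 (adjusted p = 0.1) and at -0.32 ± 0.11 after si-A1 (adjusted p = 0.0867). The noncoding neighbour PVT1 was at -0.04 ± 0.33 after si-A2 (adjusted p = 0.97).

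PCA3, at chr9:76764436-76787569, was lower after both siRNAs at 48 h without passing the test. Its probe read 5.12, 5.12, 5.88 and 6.12 after si-SCRL, 4.56, 4.55, 4.22 and 4.94 after si-A1, and 4.73, 4.49 and 4.85 after si-A2. Every control array was above every TAPIR siRNA array. The log2 differences were -0.99 ± 0.23 for si-A1 (95% confidence interval -1.51 to -0.48, adjusted p = 0.0197) and -0.92 ± 0.25 for si-A2 (-1.49 to -0.36, adjusted p = 0.0962). Among probes rated well above background on all arrays of a group the si-A1 difference passed, with an adjusted p of 0.00802, the 1 of 27 alternatives in which it was called. The log2 difference ran from -1.42 to -0.35 over them, and it was called in 0 of the 11 fits that left out 1 array. At 24 h, where another probe measured PCA3, the groups overlapped and the log2 differences were 0.00 and -0.07 (adjusted p = 0.996 and 0.937).

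PRUNE2, the gene that holds PCA3 in an intron, was at -0.40 ± 0.14 under si-A1 and at -0.70 ± 0.15 under si-A2 at 48 h, neither of which was called (adjusted p = 0.0915 and 0.0483). Of 10 genes with a tested probe within 1 Mb of PCA3, 2 were called, both lower after si-A1: GCNT1, a glycosyltransferase, at -2.0 ± 0.21 (adjusted p = 0.000453), and RFK, the riboflavin kinase, at -1.63 ± 0.17 (adjusted p = 0.000491). PCA3 is known to be induced by androgens. Of 14 tested genes of the androgen response that are reported here, 4 fell after si-A1 at 48 h, none rose and 10 were not called, with a median of -0.23, where 3.98% of all probes were called lower. FKBP5 fell by 1.86 ± 0.20 (adjusted p = 0.00045), SLC45A3 by 1.31 ± 0.16 (adjusted p = 0.000956), KLK2 by 1.07 ± 0.13 (adjusted p = 0.000972) and TRPM8 by 1.95 ± 0.30 (adjusted p = 0.00326). After si-A2 none of the 14 was called, with a median of -0.15. FKBP5 (1.68 ± 0.21, adjusted p = 0.00417), KLK2 and TRPM8 exceeded their si-A1 levels in the si-A2 arrays, and of these KLK2 lost its call with the replicate number as a block (adjusted p = 0.0285). Leaving out 1 array each kept these 3 calls in 5, 1 and 3 of 11 fits.

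PCGEM1, at chr2:192749845-192776899, and PART1, at chr5:60487713-60547657, are the other prostate transcripts. PCGEM1 was rated well above background by 1 of its 3 probe measurements, A_22_P00011157 at 48 h. That probe read 5.47, 5.98, 5.04 and 5.45 after si-SCRL, 5.91, 5.78, 5.93 and 5.81 after si-A1, and 5.60, 5.79 and 5.81 after si-A2. The groups overlapped, with differences of 0.37 and 0.27 on the log2 scale for si-A1 and si-A2 (adjusted p = 0.193 and 0.509). TMEFF2, the one tested gene within 1 Mb of PCGEM1 at 48 h, rose by 0.86 ± 0.17 after si-A1 (adjusted p = 0.00963), a call kept in 1 of the 11 fits that left out 1 array.

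PART1 is a transcript known to be induced by androgens. It had 4 probes at 24 h, all tested, and 3 at 48 h, of which A_21_P0004005 exceeded the negative-control threshold on too few arrays to test. Its brightest probe, A_21_P0004255, was present at 24 h and read 8.57, 8.63, 8.39 and 8.85 after si-SCRL, 8.78, 8.77, 8.91 and 8.94 after si-A1, and 8.10, 8.48, 8.83 and 8.57 after si-A2. The si-A1 arrays lay at the upper end of the controls, with replicates 3 and 4 above all of them, and the si-A2 arrays reached from below it to its top. Over all tested PART1 probes and both siRNAs the log2 differences ran from -0.22 to 0.35 at 24 h and from -0.37 to 0.76 at 48 h, none of them called. A_33_P3423215, which gave the 0.76, was well above background on 1 of 11 arrays.

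**Figure D3:**
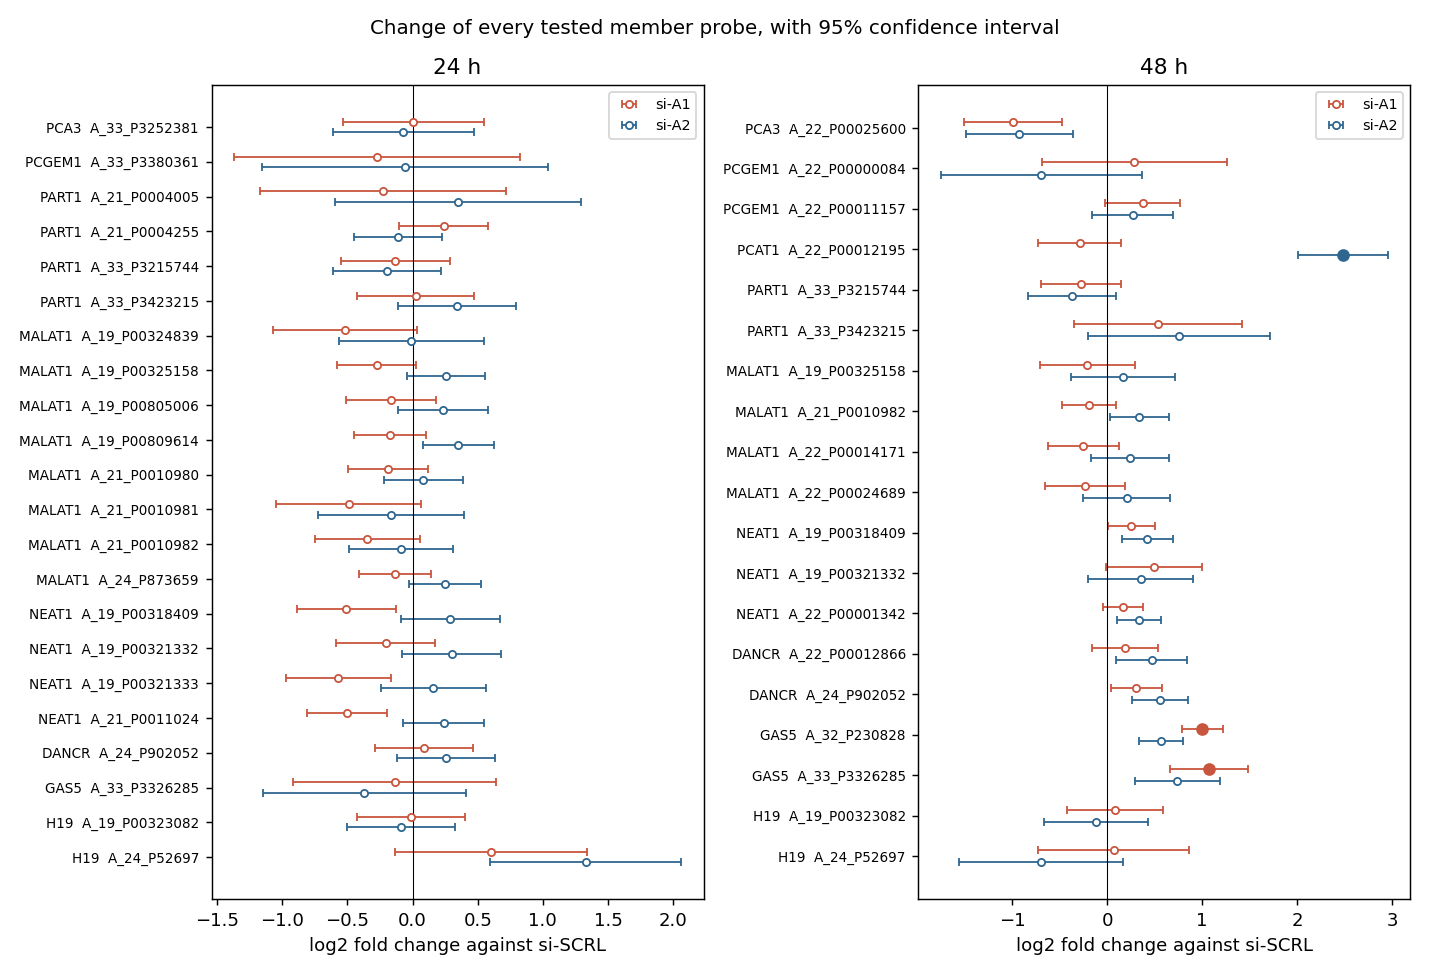
Log2 fold change against si-SCRL of every tested member probe (rows) at 24 h and 48 h, with its 95% confidence interval, for si-A1 and si-A2; filled points passed the test. At 24 h no point is filled, and at 48 h those of both GAS5 probes for si-A1 (1.00 and 1.07) and of PCAT1 for si-A2 (2.48) are.

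NEAT1 and MALAT1 lie close together on chromosome 11, at 65422798 to 65445540 and 65497738 to 65506516. At 24 h NEAT1 was lowest after si-A1 and highest after si-A2. Probe A_21_P0011024 read 12.91, 12.90, 13.38 and 13.04 after si-SCRL, 12.68, 12.64, 12.50 and 12.40 after si-A1, and 13.23, 13.28, 13.27 and 13.41 after si-A2. All si-A1 arrays were below the controls, and the si-A2 arrays overlapped only with si-SCRL replicate 3. The difference between the TAPIR siRNAs was 0.74 ± 0.14 on the log2 scale (adjusted p = 0.0311), short of the call. For all 4 NEAT1 probes si-A2 was above si-A1 at 24 h, at differences of 0.50 to 0.80 (adjusted p = 0.0311 to 0.247). In that comparison none of the 22 member probes was called, and 0.366% of all probes were.

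Against si-SCRL at 24 h, the 4 NEAT1 probes were lower after si-A1. The log2 differences were -0.50 ± 0.14, -0.51 ± 0.17, -0.57 ± 0.18 and -0.20 ± 0.17 (adjusted p = 0.119, 0.218, 0.185 and 0.631). After si-A2 the 4 were between 0.16 and 0.30 (adjusted p = 0.556 to 0.786). Of the 22 probes none was called for either siRNA at 24 h, where 1.1% of all probes were called for si-A1 and 0.928% for si-A2. At an unadjusted p below 0.05 (limma) there were 3 member probes for si-A1, 2 for si-A2 and 9 for si-A2 against si-A1. The share of all probes at that level was not computed, so these counts cannot be read as an excess among the members. Without si-SCRL replicate 3 the si-A2 to si-A1 difference of A_21_P0011024 (0.74, adjusted p = 0.00843) and A_19_P00318409 (0.81, adjusted p = 0.00511) passed. That array is in neither of the groups compared, though it enters the variance that the fit shares over the siRNAs. With it the differences were 0.74 and 0.80.

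**Figure D4:**
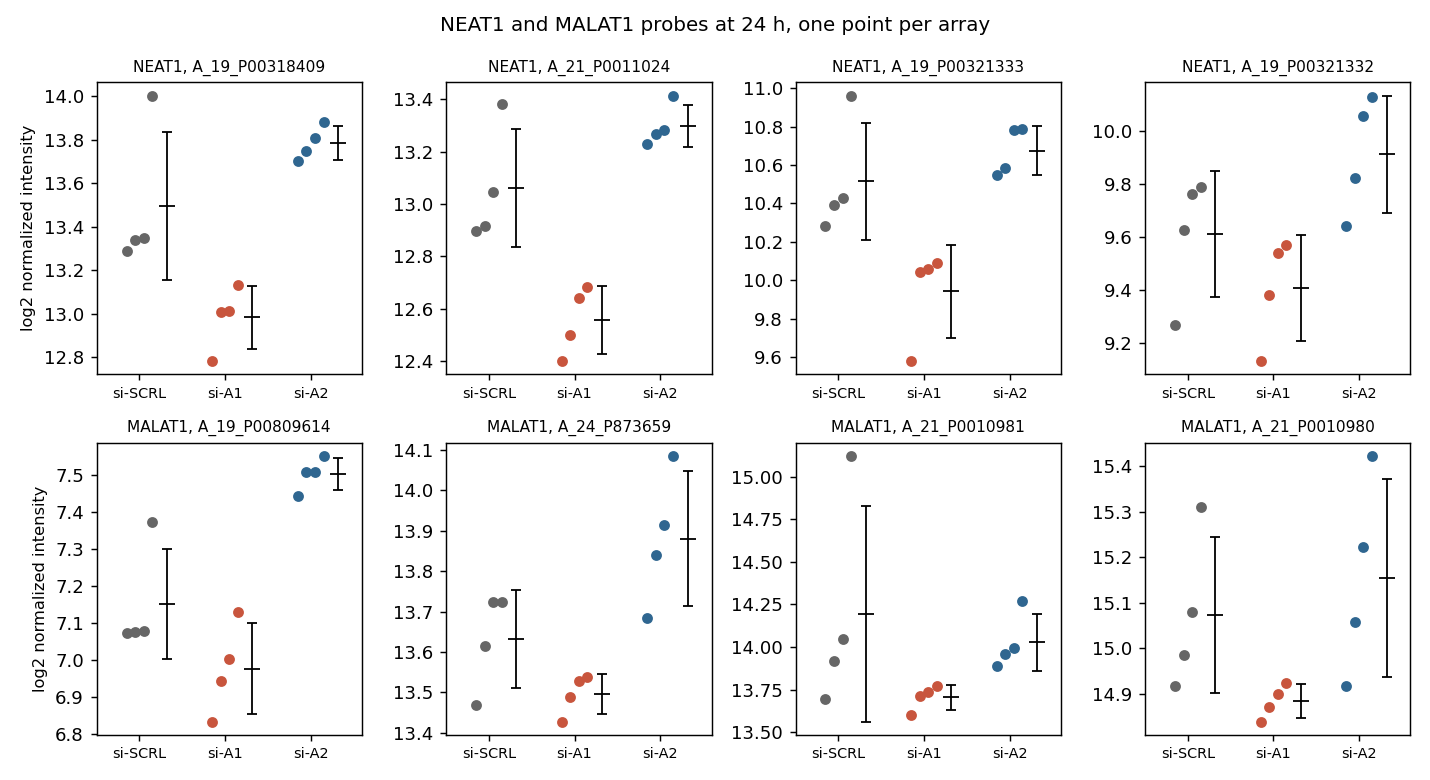
Log2 normalized intensity at 24 h of the 4 NEAT1 probes and 4 of the 8 MALAT1 probes (vertical axes, each with its own range), one point per array, n = 4 per siRNA; the black bar is the mean ± SD. The si-A1 and si-A2 points of every NEAT1 probe are apart, and in 6 of the 8 panels the highest si-SCRL point, from replicate 3, stands above the other controls.

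At 48 h the difference between the siRNAs in NEAT1 was smaller. A_19_P00318409 read 12.07, 12.26, 12.74 and 12.57 after si-SCRL, 12.50, 12.60, 12.66 and 12.90 after si-A1, and 12.77, 12.86 and 13.03 after si-A2. The si-A2 arrays lay just above the controls (0.42 ± 0.12, adjusted p = 0.108) and the si-A1 arrays overlapped with them (0.25 ± 0.11, adjusted p = 0.16). All 3 NEAT1 probes were higher after each siRNA, none called, and si-A2 against si-A1 ran from -0.14 to 0.17. For this probe the effect of si-A1 at 48 h minus that at 24 h was 0.79 ± 0.21, which did not pass (adjusted p = 0.0949). Of the listed paraspeckle proteins 2 of 19 tested fell after si-A1 at 48 h, HNRNPH3 (-0.94 ± 0.13, adjusted p = 0.00231) and NUDT21 (-0.68 ± 0.11, adjusted p = 0.00477), and none rose, against 3.98% of all probes called lower. With the replicate number as a block NUDT21 was not called (adjusted p = 0.0132). None was called after si-A2 or at 24 h.

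MALAT1 had a difference between the siRNAs of the same sign in every probe. At 24 h probe A_19_P00809614 read 7.08, 7.07, 7.37 and 7.08 after si-SCRL, 7.00, 7.13, 6.83 and 6.94 after si-A1, and 7.55, 7.44, 7.51 and 7.51 after si-A2. The si-A2 arrays lay above all others. For this probe si-A2 exceeded si-A1 by 0.53 ± 0.12 (adjusted p = 0.0756), and over the 8 probes the differences ran from 0.26 to 0.53. At 48 h the 4 probes gave 0.37 to 0.53 (adjusted p = 0.0627 to 0.466). No MALAT1 probe was called. Probes to one gene share its transcript and are not independent, so their common sign is a description of the same RNA. Among the nuclear speckle proteins, SRSF3 (-0.69 ± 0.11, adjusted p = 0.00353) and SRSF7 (-0.84 ± 0.12, adjusted p = 0.00248), both splicing factors, fell after si-A1 at 48 h. They were 2 of 18 tested, against 3.98% of all probes called lower, and none was called elsewhere. SRSF7 was not called with the replicate block (adjusted p = 0.0105).

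One control array of 24 h stood apart for several of these RNAs. Replicate 3 of si-SCRL was the highest control in 12 of 22 member probes and in 36.7% of all tested probes. It was also the dimmest array of 24 h, at a median spot intensity of 24.4, and had the lowest share of probes well above background (58.5%). For MALAT1 probe A_21_P0010981 it read 15.12 against 13.70, 13.92 and 14.05 on the other si-SCRL arrays.

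H19, at chr11:1995176-2001266, was dim. Its probe A_19_P00323082 was rated well above background on every array, and its 24 h mean was 5.28 ± 0.21 in the controls, 5.27 ± 0.21 under si-A1 and 5.19 ± 0.35 under si-A2. At 48 h the means were 4.84 ± 0.37, 4.93 ± 0.41 and 4.68 ± 0.22 in the same order. The groups overlapped, and the largest difference of this probe was -0.20 ± 0.24 on the log2 scale, between the TAPIR siRNAs at 48 h (adjusted p = 0.735). The other probe, A_24_P52697, was well above background on no array of 24 h, where its 1.33 ± 0.33 for si-A2 (adjusted p = 0.0889) is a value below that rating, and on 8 of 11 at 48 h. IGF2, the imprinted growth factor gene next to H19, was not called in any comparison. Elsewhere in the imprinted network NDN rose after both siRNAs at 24 h (1.36 ± 0.18 for si-A1 and 1.31 ± 0.18 for si-A2, adjusted p = 0.00247 and 0.00328) and GRB10 after si-A1 at 48 h (1.15 ± 0.09, adjusted p = 9.03e-05). IGF2R was lower after si-A2 at 24 h by -0.91 ± 0.15 (adjusted p = 0.00876), a call that was kept in 0 of the 12 fits that left out 1 array and in 8 of 27 alternatives in all. These are the calls against si-SCRL among 12 tested genes of the list at each time.

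The median log2 fold change over the tested member probes was -0.18 for si-A1 and 0.20 for si-A2 at 24 h, against 0.04 for each over all probes, and 0.17 and 0.34 at 48 h, against 0.05 and 0.00. For si-A2 against si-A1 it was 0.35 at 24 h, against -0.01 over all probes, and 0.17 at 48 h, against -0.04. In this comparison the difference was positive for 17 of 22 member probes at 24 h and for 11 of 19 at 48 h. The share of all probes with a positive difference was not computed, so no excess can be read from these counts. MALAT1 and NEAT1 account for 12 of the 22 probes at 24 h, and all 8 and all 4 of theirs were positive. Probes to the same gene are not independent, so these are counts of probes and not of members. Of 24 other cancer-related noncoding RNAs tested at 48 h, PCAT6 rose after si-A1 (0.53 ± 0.08, adjusted p = 0.00373, and 0.0105 with the replicate block) and none was called after si-A2, while CRNDE was lower after si-A2 than after si-A1 (-1.19 ± 0.14, adjusted p = 0.00287, and 0.0154 with the replicate block). None of the 21 tested at 24 h was called.

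Cell cycle genes moved beside these RNAs. All 10 proliferation genes listed fell after si-A1 at both times, with medians of -1.72 at 24 h and -3.07 at 48 h, and after si-A2 8 fell at 24 h and 2 at 48 h, with medians of -1.89 and -1.44. With the replicate block at 48 h, 9 were called after si-A1 and 0 after si-A2. Of 10 p53 targets, 2 rose after si-A1 and 7 after si-A2 at 24 h, and 5 and 1 at 48 h (3 and 0 with the replicate block). The share of all probes called in either direction was 1.1% for si-A1 and 0.928% for si-A2 at 24 h. At 48 h it was 6.11% and 0.445%, so the counts of the siRNAs stand against unlike shares. CDKN1A, which halts the cell cycle, rose by 2.10 ± 0.18 after si-A1 at 48 h (adjusted p = 0.000148) and by 1.79 ± 0.15 after si-A2 at 24 h (adjusted p = 0.000103). None of the 10 nonsense-mediated decay factors, which degrade spliced GAS5, was called in any comparison, where 0.366% to 6.11% of all probes were. The part of the cell cycle or of these factors in the levels of GAS5 was not tested.

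The RNAs whose pattern over the 12 arrays of 24 h was most like each member's are given with their likeness at 48 h, where the same probes allow it. For NEAT1 these were EAF1, RNF7 and KCTD20 (Pearson r of 0.99, 0.99 and 0.98 after removing the slide means), and over the 11 arrays of 48 h r was 0.06, 0.25 and -0.21. For GAS5 they were C1orf226, TAF1 and CDK7 (0.94, 0.92 and 0.92), and at 48 h 0.12, -0.05 and 0.76. For DANCR they were FKBP11, RPL23A and ATP5MF (0.95, 0.95 and 0.94), and at 48 h 0.30, 0.32 and -0.12. For H19 they were ZNF705A, ZNF257 and SLCO1A2 (0.90, 0.87 and 0.86), and at 48 h 0.28, 0.63 and 0.69. For MALAT1 they were BCL2L2, SOD1 and FDX1 (0.96, 0.96 and 0.94), for PART1 NEU3, WASH5P and TMEM209 (0.98, 0.97 and 0.94), for PCGEM1 ARMCX4, TRIM22 and IGSF21 (0.92, 0.91 and 0.91), and for PCA3 DEFB115, CD1B and GSC2 (0.97, 0.96 and 0.96), with no value at 48 h since the probe that was used is on the earlier array version alone. The points share slides and groups, and the highest values were picked among all named genes, so they are a description.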

How the data were processed

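The arrays were scanned as one-colour (Cy3) Agilent spots with Feature Extraction 11.5.1.1. The deposited intensity is the processed signal, from which the authors' scanner software had subtracted background, and the authors also deposited a log2 table of quantile-normalized values (R 3.4.3, limma 3.34.8 in the study), used as an alternative. Here the processed signals were quantile-normalized on the log2 scale within each time point, flagged spots were dropped, repeated spots of a probe were averaged, and probes above the negative-control mean plus 3 SD on at least 3 arrays were tested (44849 at 24 h and 45200 at 48 h) with limma 3.58.1 under R 4.3.3, with the 3 siRNAs of a time point in 1 fit and slide as an additive term. The study's filter on an interquartile range of 0.5 was an alternative only, since it drops members that vary little. The change of an effect between times was fitted over 35826 shared probes, normalized together.

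Accessions were named through RefSeq (GRCh38.p14), which covered 57.4% and 53.4% of probes. For genes of the lists the brightest tested probe was used. The shares and medians over all tested probes that stand beside the list counts include dimmer probes, so they are not matched to the lists. The members and lists were chosen with earlier results of these data known. Named are all members, the TAPIR probes, called list genes (some genes of the lists are not reported here) and the 3 genes most alike to each member; genes within 1 Mb were added after their values were seen. In the list of genes beside the members, CERS6, BRCA2 and MIR1-1HG lie on other chromosomes or more than 1 Mb away. CERS6 fell after si-A2 (-1.90 at 24 h and -1.22 at 48 h, the latter not called with the replicate number as a block, adjusted p = 0.0157), and none of the others was called. Same-numbered arrays deviated together at 48 h (r of 0.18 to 0.35 in 10 of 10 pairs) and not at 24 h (over 0.1 in 3 of 12). They also share a slide, and within slides r at 48 h was only 0.02 to 0.08 where it could be computed. The slide term therefore already takes up most of this, and the replicate block is an alternative fit. The number of arrays limits the precision.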

Additional observations from a re-analysis of the deposited data

Results flagged for a closer look

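In 9 of 106 groups of 4 arrays a member probe had 1 array far from the other 3 by Dixon's test, which chance gives in about 1 of 20 groups. Of these, 3 were in si-SCRL replicate 3 at 24 h: NEAT1 probe A_19_P00318409 read 14.00 with the nearest control at 13.35, MALAT1 probe A_19_P00809614 read 7.37 with the nearest at 7.08, and PCGEM1 probe A_33_P3380361 read 1.90 with the nearest at 2.94. Another 2 were in other controls of 24 h, MALAT1 probe A_19_P00325158 in replicate 4 (6.76, nearest 7.17) and H19 probe A_24_P52697 in replicate 1 (2.21, nearest 1.67). NEAT1 probe A_19_P00321333 was low in si-A1 replicate 3 at 24 h (9.58, nearest 10.04), and MALAT1 probe A_21_P0010982 was low in si-A2 replicate 1 (13.36, nearest 13.79). PART1 probe A_21_P0004005 at 48 h, which was not tested, read 2.31 in si-SCRL replicate 4 (nearest 1.15) and 2.42 in si-A1 replicate 1 (nearest 1.17).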

How the results depend on the processing

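The 4 called member differences kept their direction in all 107 refits, while the calls varied, and of 3719 refits of uncalled member differences 3557 kept the sign. Leaving out 1 array each gave 1 to 2 member probes called for si-A1 at 48 h (2 as reported), 0 to 1 for si-A2 (1 as reported), 1 for si-A2 against si-A1 (1 as reported), 0 to 2 for that comparison at 24 h (0 as reported, 2 without si-SCRL replicate 3) and 0 in the others. At 48 h the counts for si-A1, si-A2 and si-A2 against si-A1 were 0, 0 and 0 on slide 1 only, on slide 2 only and with the dim array kept, and 1, 0 and 0 with only the compared groups in the fit. For si-A1 the count was 1 with the brightest probe per gene and with a log2 fold change of at least 1. For si-A2 it was 0 with the replicate block in place of the slide, the one member call that this block changed. With this block no probe at all was called for si-A2 at 48 h, and 1797 were for si-A1. The si-A2 count was 2 at an adjusted p below 0.05, and 3 with no background correction or with normexp on the median signal, DANCR and GAS5 being added. At 24 h the count for si-A2 against si-A1 was 1, a NEAT1 probe, with no background correction, with normexp, with probes well above background and at an adjusted p below 0.05. No member was called for the change of an effect in any setting. Normexp on the mean signal was not run as planned, because the files used here hold the median; normexp on the median was chosen after seeing the data.

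Over all settings the number of all probes called ran from 0 to 1012 for si-A1 (494 as reported), 0 to 807 for si-A2 (416) and 0 to 615 between them (164) at 24 h, from 0 to 5261 (2761), 0 to 1173 (201) and 0 to 2075 (654) at 48 h, and from 0 to 292 (57) and 0 to 35 (12) for the change of the effects. With the replicate block at 24 h, where the numbers did not pair the arrays, SNHG16 (adjusted p = 0.019) and IGF2R (0.0156) were not called for si-A2. The causes were not tested. The 3 or 4 arrays a group limit all members. Intensities near background limit PCGEM1, H19 and the dim probes of PART1. PCA3 and PCAT1 also read low, at 5.56 and 5.62 after si-SCRL at 48 h, though well above background on every array.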
